A study of Rattus norvegicus with 32 samples.

Results

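The genes described here were Spp1, the gene of osteopontin, and Mmd, Gpnmb, Lgals3, Trem2, Fabp5 and Cd44. All but Mmd are in the signature used below for scar-associated macrophages and their setting. The 7 genes were chosen by symbol, and each symbol matched 1 of the 32623 genes of the count files. Spp1 and Mmd were selected on their rise after 2 weeks of CCl4 in these libraries. Their values in healthy and acute libraries are therefore given as a description with no test, as are their differences in every other comparison that uses these libraries.

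RNA was sequenced from liver sinusoidal endothelial cells (LSECs), the fenestrated and highly endocytic endothelium of the liver capillaries, in 32 libraries. The CCl4 series held 6 healthy, 5 acute (2 weeks of inhaled CCl4), 5 fibrosis (6 weeks) and 6 cirrhosis (12 to 14 weeks) libraries, where CCl4 is a hepatotoxin whose repeated inhalation scars the liver. A separate thioacetamide (TAA) experiment held 5 libraries of a group labelled control and 5 of a group labelled TAA control. Per the study's methods the rats were male, those of the CCl4 model drank water with phenobarbital, and cells were isolated some days after the last toxicant. Wistar Han is the strain on every label, whereas the study design gave Sprague-Dawley for the TAA experiment. Healthy rats were labelled untreated, their age was not given in the sources used here, and whether they received phenobarbital was not stated. The labels do not settle which group of the TAA experiment received TAA, so that comparison has no direction in terms of disease. LSECs were enriched by density gradient, and other liver cells could remain in the preparation. Libraries held 25646531 to 46464289 counts in all. The labels number the libraries separately but do not state that each came from its own rat, so that p-values measure the spread between these libraries. In the group labelled TAA control, the counts of replicates 14 and 15 differed little (chi-square per degree of freedom 2.96, against at least 23.6 for other pairs of a group), though by more than sampling noise, and both were kept.

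Osteopontin is a secreted matrix phosphoprotein that engages integrins and CD44 on neighbouring cells, and in the liver it is known as a product of bile duct cells, activated stellate cells and macrophages. Scar-associated macrophages are monocyte-derived cells of the fibrotic niche known for TREM2, CD9, SPP1 and GPNMB. TREM2 is a lipid-sensing receptor that signals through the adaptor TYROBP, and GPNMB is a transmembrane glycoprotein of stressed lysosomes. Galectin-3 (Lgals3) is a secreted carbohydrate-binding lectin, FABP5 an intracellular fatty acid carrier and CD44 the hyaluronan receptor. Mmd encodes a membrane protein of the progestin and adipoQ receptor family, named for its rise when monocytes become macrophages.

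Spp1, Mmd and Gpnmb had the largest rises of the 7 genes at 2 weeks, and the stretches upstream of their starts are shown to let a reader compare the promoters of genes that were high in the same libraries. RefSeq promoter windows of assembly GRCr8 were found for 5 of the 7 genes. The 250 bases before the start are printed 5′ to 3′ on the gene's strand for Spp1 (chr14:5619805-5620054, minus strand), Mmd (chr10:75570203-75570452, plus strand) and Gpnmb (chr4:79340878-79341127, plus strand). Reads had been mapped to another assembly, Rnor_6.0. Capitals mark matches to 4 searched motifs.
Spp1: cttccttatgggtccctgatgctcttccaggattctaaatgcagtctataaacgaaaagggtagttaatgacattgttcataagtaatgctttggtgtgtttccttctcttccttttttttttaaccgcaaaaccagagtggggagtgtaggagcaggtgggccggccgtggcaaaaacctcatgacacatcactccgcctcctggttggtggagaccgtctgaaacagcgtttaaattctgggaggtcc
Mmd: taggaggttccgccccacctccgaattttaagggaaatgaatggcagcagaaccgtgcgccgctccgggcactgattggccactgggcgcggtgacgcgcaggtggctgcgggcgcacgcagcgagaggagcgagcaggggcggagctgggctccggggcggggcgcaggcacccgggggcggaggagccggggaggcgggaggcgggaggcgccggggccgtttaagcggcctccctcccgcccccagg
Gpnmb: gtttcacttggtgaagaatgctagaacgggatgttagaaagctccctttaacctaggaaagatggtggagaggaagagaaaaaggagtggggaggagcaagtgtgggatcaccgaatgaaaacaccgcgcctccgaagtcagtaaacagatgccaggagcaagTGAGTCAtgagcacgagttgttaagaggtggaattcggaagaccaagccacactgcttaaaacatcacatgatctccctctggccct
The motifs, searched on both strands in windows that also took in 50 bases past the start, were AP-1 (TGANTCA), the E-box CACGTG, TGACNNNGC and GAGGAAGT, of which the AP-1 and TGACNNNGC patterns can overlap. AP-1 letters were found 87 bases before the start of Gpnmb (TGAGTCA) and at the start of Trem2 (TGAATCA), and 7.33% of all 33469 promoters held them. Cd44 held the TGACNNNGC pattern, on the opposite strand as GCTTAGTCA, 108 bases before its start, as did 12.1% of all promoters. The E-box (6.42% of promoters) and GAGGAAGT (2.42%) were found in none of the 5 windows. Spp1 and Mmd held none of the 4 motifs in these windows. A match is a description of the letters, not of a binding site.

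Osteopontin mRNA was near the limit of detection in healthy LSECs and was highest after 2 weeks of CCl4. Levels are CPM, counts scaled to library size and TMM factors. In healthy LSECs Spp1 had 0.44, 0.17, 0.53, 0.43, 0.25 and 0.47 CPM in replicates 1 to 6, from 5 to 18 counts per library. In acute LSECs it had 64.0, 102.8, 90.3, 105.1 and 35.3 CPM in replicates 1, 2, 3, 4 and 8. Every acute library lay above every healthy library, and 60% of all genes tested had no overlap between these groups. The Spp1 means were 79.5 ± 29.6 CPM (SD, n = 5) and 0.38 ± 0.14 (SD, n = 6), a log2 difference of 7.67 ± 0.49 (SE). Spp1 ranked 21 by the size of its rise among 14317 genes tested, which describes how it was picked.

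In fibrosis the libraries disagreed about osteopontin. Spp1 had 16.1, 13.01, 99.3, 6.63 and 0.20 CPM in replicates 12, 13, 15, 16 and 17. Replicate 15 was as high as the acute libraries, and replicate 17, with 7 counts, lay within the healthy range. The mean was 27.1 ± 40.9 CPM (SD, n = 5) and the log2 difference from healthy LSECs 4.43 ± 1.73 (SE). This value was 3.56 without replicate 15, 5.75 without replicate 17 and 4.99 without both, and it was 6.20 with edgeR and 6.25 with DESeq2.

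In cirrhosis the level split again. Spp1 had 1.76, 2.58, 1.27, 24.1, 13.3 and 13.2 CPM in replicates 1 to 6. Replicates 4, 5 and 6 were higher than the other 3, and all 6 were above the healthy libraries and below the acute ones. The mean was 9.38 ± 9.15 CPM (SD, n = 6), a log2 difference of 3.89 ± 1.03 (SE) from healthy LSECs. By median the order of the levels was acute (90.3 CPM), fibrosis (13.01), cirrhosis (7.90) and healthy (0.43). Fibrosis overlapped each of the other 3 groups, whereas acute, cirrhosis and healthy did not overlap one another. Such separation was common among all genes tested. It held for 60% between acute and healthy, 27.2% between cirrhosis and healthy and 65.9% between cirrhosis and acute LSECs.

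**Figure D1:**
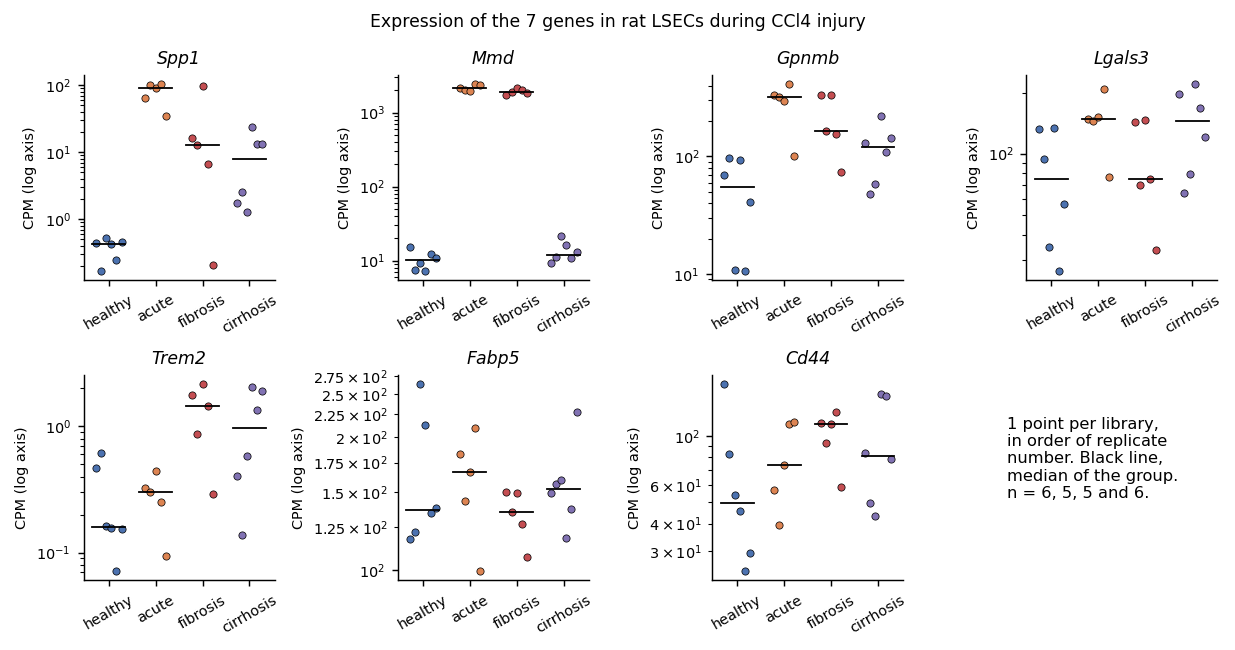
Levels of the 7 genes in the CCl4 series, in CPM on a log axis whose range differs between panels, with 1 point per library in order of replicate number and a black line at the group median (healthy n = 6, acute n = 5, fibrosis n = 5, cirrhosis n = 6). Mmd forms a plateau in acute and fibrosis LSECs, Spp1 spreads from 0.20 to 99.3 CPM within fibrosis, and Fabp5 stays within 99.6 to 263 CPM throughout.

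Of the receptors of osteopontin, the alpha-v and beta-1 integrin genes were higher in injured LSECs and most of the others were lower in the acute and fibrosis groups. A gene was called at an unadjusted p under 0.05 with a fold change above 1.5, and adjusted p-values are Benjamini-Hochberg values of limma-voom over all genes tested. Of the 10 receptor genes, 2 were called higher and 7 lower in acute LSECs, 2 higher and 5 lower in fibrosis, and 4 higher and 1 lower in cirrhosis. The median log2 fold changes of the 10 were -1.41, -0.71 and 0.71, against -0.09, -0.03 and 0.07 over all genes tested. Of all genes tested, 35.8% were called higher and 38.3% lower in acute LSECs, 35.8% and 35.4% in fibrosis, and 28.8% and 25.7% in cirrhosis. With no scaling beyond library size, the median of all genes moved up by 0.41, 0.40 and 0.35 on the log2 scale, and the share of calls that were higher in cirrhosis went from 52.8% to 71.2%.

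Itgav, which pairs with beta integrins to bind osteopontin, rose from a mean of 22.8 CPM in healthy LSECs to 358 in acute, 571 in fibrosis and 47.7 in cirrhosis LSECs. Its log2 fold changes were 3.78 ± 0.42, 4.74 ± 0.24 and 1.05 ± 0.27 (SE), with limma-voom adjusted p-values of 5.20e-06, 1.08e-08 and 0.00579. Itgb1, a beta subunit shared by many integrins, rose by log2 fold changes of 2.06, 2.21 and 1.12. Itga9, whose product binds thrombin-cleaved osteopontin, fell in acute and fibrosis LSECs (log2 fold changes -4.21 and -3.68) and was not called in cirrhosis. Itga4, a leukocyte integrin subunit, fell in acute and fibrosis LSECs (log2 fold changes -2.26 and -2.25) and rose in cirrhosis (1.30). Itgb5 fell at the earlier stages (-2.73 and -2.03), and Itga5, the fibronectin receptor subunit, fell at all 3 (-1.66, -0.95 and -0.70).

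Cd44, the receptor of hyaluronan and a reported osteopontin receptor, was not called in any comparison with healthy LSECs. It ranged from 24.4 to 172 CPM in healthy libraries (median 49.8), from 39.6 to 115 in acute (73.5), from 58.5 to 128 in fibrosis (113) and from 43.4 to 154 in cirrhosis (80.9). All 4 groups overlapped, and healthy replicate 1 held the highest value of all. The log2 fold changes were 0.48 ± 0.48 in acute, 0.93 ± 0.44 in fibrosis and 0.63 ± 0.47 in cirrhosis LSECs (SE), with limma-voom adjusted p-values of 0.369, 0.0761 and 0.265. Without healthy replicate 1, each of these 3 comparisons passed the threshold, with log2 fold changes of 0.89, 1.26 and 0.97 and adjusted p-values of 0.0519, 0.00541 and 0.0612.

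Around CD44, some genes of hyaluronan turnover had larger changes than Cd44 itself. Of the 15 genes of CD44 and hyaluronan, 4 of 14 tested were called higher and 6 lower in acute LSECs. In fibrosis 6 of 15 were higher and 6 lower, and in cirrhosis 4 higher and 2 lower. Of all genes tested, 35.8% were called higher and 38.3% lower in acute LSECs, 35.8% and 35.4% in fibrosis, and 28.8% and 25.7% in cirrhosis. The counts of the list lay above some of these shares and below others. Hyal1 and Hyal2, the hyaluronidases, fell in acute LSECs (log2 fold changes -5.83 and -3.47) and in fibrosis (-4.89 and -3.94). Stab2, a hyaluronan clearance receptor and an LSEC marker, fell at these stages (-4.52 and -4.18) and was not called in cirrhosis. Has2, a hyaluronan synthase, was at 0.04 CPM in healthy LSECs, 2.215 in fibrosis and 1.58 in cirrhosis (log2 fold changes 5.65 and 5.08 from few counts). Rdx, which links CD44 to the actin cortex, rose by 2.05, 2.05 and 1.30 on the log2 scale.

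Among genes whose products cleave or modify osteopontin, the stromelysin gene Mmp3 had the largest change. Mmp3 averaged 0.09 CPM in healthy, 138 in acute, 143 in fibrosis and 0.26 in cirrhosis LSECs, with log2 fold changes of 10.48 and 10.84 in acute and fibrosis. Mmp12, the macrophage elastase, stayed high to the end, with means of 2.24, 81.9, 49.6 and 45.2 CPM and log2 fold changes of 5.11, 4.38 and 4.24 (limma-voom adjusted p-values of 3.83e-06, 5.30e-05 and 1.09e-04). Tgm2, the transglutaminase that crosslinks osteopontin, fell at each stage, with log2 fold changes of -3.37, -2.64 and -1.07. Of these 7 genes, 6 were tested in acute and fibrosis LSECs, with 2 higher and 3 lower in acute and 2 higher and 2 lower in fibrosis. In cirrhosis 5 were tested, with 1 higher and 2 lower. These counts were not far from the shares of all genes tested. Those were 35.8% higher and 38.3% lower in acute LSECs, 35.8% and 35.4% in fibrosis, and 28.8% and 25.7% in cirrhosis.

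**Figure D2:**
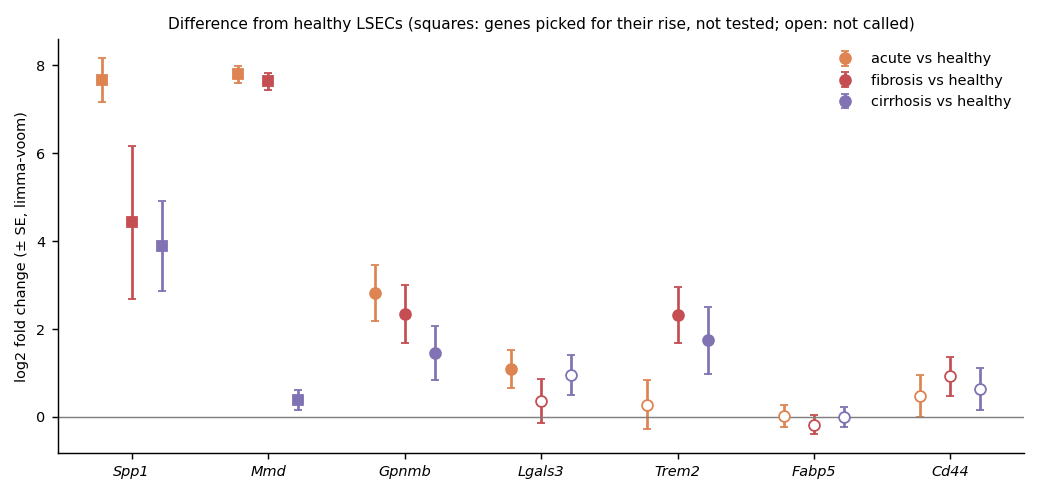
Log2 fold change against healthy LSECs (y axis, limma-voom, bars are SE) for the 7 genes at 3 stages of CCl4 injury, where squares are Spp1 and Mmd, picked for their rise and not tested, filled circles passed the threshold and open circles did not. Mmd returns from 7.63 in fibrosis to 0.39 in cirrhosis, whereas Spp1, Gpnmb and Trem2 remain above 1 in cirrhosis.

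Mmd formed a plateau at 2 and 6 weeks that was not seen in cirrhosis. In healthy LSECs it had 15.1, 7.53, 9.33, 7.31, 12.1 and 10.9 CPM in replicates 1 to 6. In acute LSECs it had 2167, 1998, 1984, 2447 and 2388 CPM, and in fibrosis 1721, 1906, 2165, 1999 and 1819. The libraries of each group lay close together, and acute and fibrosis overlapped. The log2 differences from healthy LSECs were 7.79 ± 0.20 and 7.63 ± 0.19 (SE).

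In cirrhosis Mmd was near the level of healthy LSECs, with 9.40, 11.1, 21.8, 16.1, 10.8 and 12.98 CPM in replicates 1 to 6. Replicates 3 and 4 lay above every healthy library and the others within their range, and the log2 difference was 0.39 ± 0.24 (SE). Against fibrosis, a comparison that uses none of the libraries that picked the gene, Mmd was lower by a log2 fold change of -7.20 ± 0.19 (SE, limma-voom adjusted p = 9.63e-11), with all 6 cirrhosis libraries below all 5 fibrosis libraries. In that comparison 34.5% of genes were called higher and 29.7% lower, and 63.3% had no overlap between the groups. Mmd was the only one of the 7 genes called. Mmd ranked 17 of 15186 genes by the size of its fall.

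The other members of its receptor family did not follow Mmd. Of 10 genes of the family tested, Mmd was the 1 called higher in acute LSECs, and 7 were called lower, as in fibrosis. Paqr4, a Golgi member with a role in ceramide handling, fell in acute, fibrosis and cirrhosis LSECs, with log2 fold changes of -4.27, -4.24 and -1.62. Adipor1, an adiponectin receptor, fell less, with -1.44, -1.43 and -0.64. Mmd2, the closest relative of Mmd, was not tested, with a mean of 1.01 CPM in healthy LSECs and 0 in acute LSECs.

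Gpnmb was the gene of the macrophage signature with the largest tested rise at 2 weeks among the 5 members not chosen for it. In healthy LSECs it had 69.9, 97.3, 10.8, 92.8, 10.7 and 41.1 CPM in replicates 1 to 6. In acute LSECs it had 331, 319, 293, 414 and 101 CPM in replicates 1, 2, 3, 4 and 8. All acute libraries were above all healthy ones, although replicate 8 was close to the highest of them. Of all genes tested, 60% had no overlap between these groups. The log2 fold change of Gpnmb was 2.83 ± 0.63 (SE, limma-voom adjusted p = 0.00137), and it passed the threshold under all 22 alternatives tried, between 2.40 and 3.24.

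In fibrosis Gpnmb had 330, 166, 331, 154 and 74.4 CPM in replicates 12, 13, 15, 16 and 17, and only replicate 17 fell within the healthy range. The log2 fold change was 2.34 ± 0.66 (SE, limma-voom adjusted p = 0.00642), and all 22 alternatives passed, between 1.74 and 2.73. In cirrhosis it had 131, 47.7, 57.9, 221, 109 and 143 CPM, where replicates 2 and 3 overlapped the healthy libraries. The log2 fold change there was 1.45 ± 0.60 (SE), past the call rule but not after adjustment (limma-voom adjusted p = 0.0532). It lost the call under edgeR (log2 fold change 1.12), with weights per library (0.92) and without any of healthy replicates 3 and 5 or cirrhosis replicates 1, 4, 5 and 6 (1.08 to 1.44). Cirrhosis was below acute by a log2 fold change of -1.34 ± 0.43 (SE, adjusted p = 0.0112). Fibrosis was not called against either of these groups.

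Mitf, of the MiT-TFE factors that control Gpnmb and lysosome genes, was the 1 of 4 factors called higher at 2 and 6 weeks. It rose from a mean of 2.46 CPM in healthy LSECs to 10.6, 8.90 and 7.06, with log2 fold changes of 2.29, 2.00 and 1.58. Tfeb fell, with log2 fold changes of -1.79, -2.04 and -1.18, and so did Tfe3, with -1.29, -1.41 and -1.05.

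Trem2 was scarce in every library, and its values rest on few counts. It had from 2 to 18 counts per healthy library (0.07 to 0.62 CPM), from 3 to 16 per acute library (0.09 to 0.44 CPM) and from 7 to 95 per cirrhosis library (0.14 to 2.05 CPM). In fibrosis it had 1.78, 0.87, 2.16, 1.46 and 0.29 CPM in replicates 12, 13, 15, 16 and 17, from 10 to 65 counts, and 4 of the 5 libraries were above all healthy and acute ones. Acute and healthy LSECs were not distinguishable (log2 fold change 0.28 ± 0.56, SE). Fibrosis was higher than healthy by a log2 fold change of 2.31 ± 0.64 (SE, limma-voom adjusted p = 0.00564) and than acute by 2.07 ± 0.63 (adjusted p = 0.0409).

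In cirrhosis the Trem2 libraries again split, with 0.41, 0.14 and 0.58 CPM in replicates 1, 2 and 3 and 2.05, 1.36 and 1.91 in replicates 4, 5 and 6. These last 3 libraries were also the ones with the most Spp1. The log2 fold change from healthy was 1.74 ± 0.76 (SE), past the call rule but not after adjustment (limma-voom adjusted p = 0.0647), and the call was lost without any of healthy replicates 3 to 6 or cirrhosis replicates 4 to 6 (1.45 to 1.68). Cirrhosis against acute was not called (1.49 ± 0.75, SE, adjusted p = 0.0845), but passed with edgeR (1.90, adjusted p = 0.0142).

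Several signalling partners of TREM2 fell at 2 and 6 weeks. Tyrobp, the adaptor through which TREM2 signals, averaged 105 CPM in healthy, 16.5 in acute, 10.9 in fibrosis and 89.8 in cirrhosis LSECs, with log2 fold changes of -2.33 ± 0.52, -3.08 ± 0.61 and 0.06 ± 0.47 (SE) and limma-voom adjusted p-values of 0.0013, 6.09e-04 and 0.922. Hcst, the alternative adaptor, and Syk, the kinase recruited by TYROBP, fell in acute LSECs (log2 fold changes -3.16 and -1.36) and in fibrosis (-2.88 and -1.29). Apoe, a lipid ligand of TREM2, fell at the 3 stages, with -5.21, -3.42 and -1.98. Apoe is also abundant in hepatocytes, whose 10 markers were called lower in 10, 7 and 4 cases at these stages and summed to a median of 19425 CPM in healthy, 347 in acute, 2971 in fibrosis and 7303 in cirrhosis libraries, and their part in its fall was not tested. Adam10 and Adam17, the sheddases that release soluble TREM2, rose, by log2 fold changes of 1.72, 1.40 and 1.44 for Adam10 and 1.08, 0.97 and 0.73 for Adam17. Of the 13 genes, Trem2 included, 3 were called higher and 8 lower in acute LSECs, 4 higher and 6 lower in fibrosis, and 6 higher and 2 lower in cirrhosis. The shares over all genes tested were 35.8% higher and 38.3% lower in acute LSECs and 35.8% and 35.4% in fibrosis. In cirrhosis these shares were 28.8% and 25.7%. The fibrosis counts were not far from the shares of genes at large.

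**Figure D3:**
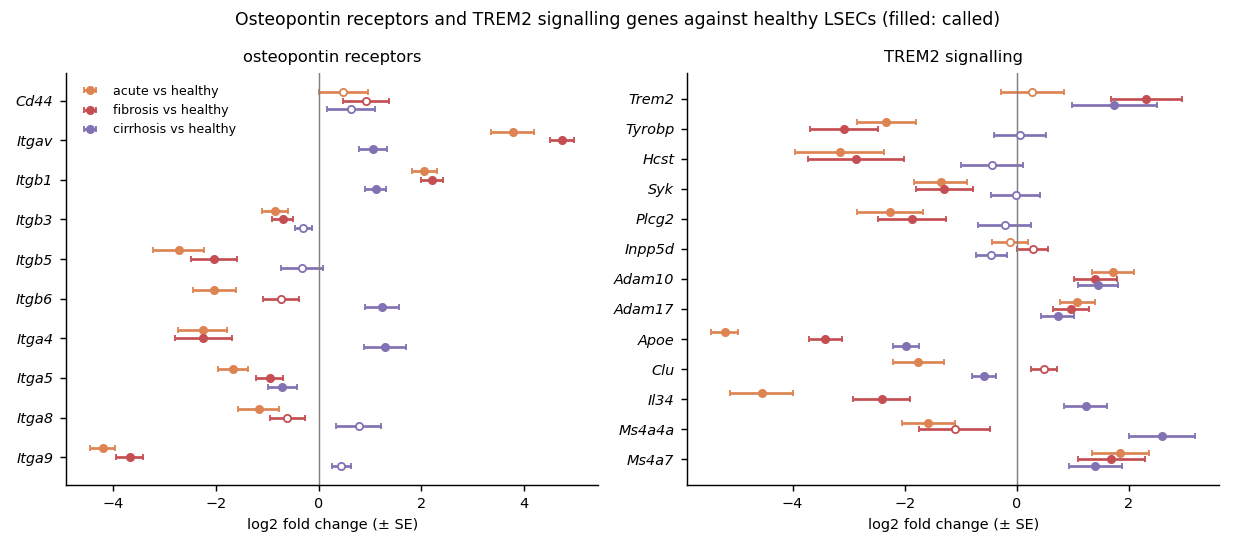
Log2 fold change against healthy LSECs (x axis, limma-voom, bars are SE) for 10 osteopontin receptor genes and 13 genes of TREM2 signalling, where filled points passed the threshold and open points did not. Itgav and Itgb1 lie to the right at all 3 stages, while Tyrobp, Hcst, Syk and Plcg2 lie to the left in acute and fibrosis LSECs and near 0 in cirrhosis.

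Lgals3 showed a small rise in acute LSECs that depended on single libraries. It had 132, 93.6, 34.8, 134, 26.6 and 56.6 CPM in healthy replicates 1 to 6 and 148, 145, 152, 207 and 76.4 in acute replicates 1, 2, 3, 4 and 8. The groups overlapped through acute replicate 8. The log2 fold change was 1.09 ± 0.44 (SE, limma-voom adjusted p = 0.0368), and the call was lost with edgeR (0.89), with weights per library (0.65), without healthy replicate 5 (0.81) and without acute replicate 4 (0.97). Fibrosis (33.5 to 147 CPM, log2 fold change 0.37 ± 0.51) and cirrhosis (64.2 to 221 CPM, 0.96 ± 0.45) were not called, with adjusted p-values of 0.524 and 0.0824, though cirrhosis passed under 12 of 23 alternatives.

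The other galectins moved in both directions. Lgals1, a galectin of mesenchymal cells, fell in acute and fibrosis LSECs (log2 fold changes -4.83 and -3.41), and Lgals9 fell at all 3 stages (-3.39, -3.60 and -1.32). Lgals8, which binds damaged lysosomes, rose at all 3 (1.003, 1.09 and 0.71). Of 5 galectin genes tested in acute LSECs, Lgals3 included, 2 were called higher and 3 lower. In fibrosis 1 of 5 was higher and 3 lower, and in cirrhosis 2 of 6 were higher and 2 lower. The shares over all genes tested were 35.8% higher and 38.3% lower in acute LSECs and 35.8% and 35.4% in fibrosis. In cirrhosis these shares were 28.8% and 25.7%.

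Fabp5 was not called at any stage of the CCl4 series. It ranged from 118 to 263 CPM in healthy, from 99.6 to 210 in acute, from 107 to 150 in fibrosis and from 118 to 228 in cirrhosis libraries, and all 4 groups overlapped. The log2 fold changes were 0.02 ± 0.25, -0.17 ± 0.21 and -0.01 ± 0.22 (SE), with limma-voom adjusted p-values of 0.945, 0.467 and 0.974. Fabp5 was the only 1 of the 7 genes whose expected count was not whole in any of the 32 libraries, so that part of its reads was divided between it and similar genes, and its level is less certain. Of its family, Fabp1 of hepatocytes fell in acute and fibrosis LSECs (log2 fold changes -6.60 and -4.34), and Fabp4, the adipocyte and capillary form, rose in cirrhosis by 1.48.

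Of the 5 genes not picked for their rise, 2 were called higher and 0 lower in acute LSECs (Gpnmb and Lgals3), 2 higher and 0 lower in fibrosis (Gpnmb and Trem2), and the same 2 higher in cirrhosis, where neither held after adjustment. The 3 comparisons share the 6 healthy libraries. Of all genes tested, 35.8%, 35.8% and 28.8% were called higher in acute, fibrosis and cirrhosis LSECs, so these counts lay near the share of genes at large. Between fibrosis and acute, where 15.7% of genes were called in either direction, Trem2 alone of the 5 was called, and it was higher. Spp1 differed by -3.24 on the log2 scale there, given with no test, a value that was -1.91 without fibrosis replicate 17, -4.09 without replicate 15 and -1.48 with edgeR or DESeq2. Between cirrhosis and acute, where 31.9% of genes were called lower, Gpnmb alone of the 5 was called lower, and Spp1 and Mmd differed by -3.73 and -7.38, again with no test. Spp1 in cirrhosis was not distinguishable from fibrosis (log2 fold change -0.43 ± 1.345, SE, limma-voom adjusted p = 0.774), a value that ran from -1.77 without fibrosis replicate 17 to 0.41 without fibrosis replicate 15.

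Macrophage genes at large moved the other way from Spp1 and Gpnmb in acute and fibrosis LSECs. Of 20 macrophage markers, 18 had a symbol in the files and 17 were tested in both comparisons, and 16 were called lower in acute (median log2 fold change -3.24) and 15 in fibrosis LSECs (-3.94), with 0 higher in each. In cirrhosis 4 of 18 were called higher and 0 lower (median 0.11). Clec4f, the Kupffer cell lectin, fell in acute and fibrosis LSECs (log2 fold changes -4.40 and -4.91), as did the pan-macrophage gene Adgre1 (-2.98 and -3.13), Csf1r (-2.31 and -3.94), Cd68 (-1.72 and -2.04) and Lyz2 (-4.94 and -4.49). Ptprc, the pan-leukocyte gene, was not called in either, with log2 fold changes of -0.13 and -0.24. Timd4 was the 1 marker at 0 counts in all acute and all fibrosis libraries.

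Mrc1 made up much of the summed level and is also a scavenger receptor of LSECs, so sums are given without it, a choice made after the values were seen. The remaining 17 markers summed to 802 to 4995 CPM in healthy (median 3074), 185 to 364 in acute, 84.8 to 389 in fibrosis and 1548 to 4270 in cirrhosis libraries. Acute and fibrosis libraries lay below all healthy and cirrhosis ones. Bile duct markers other than Spp1 summed to 2.22 to 34.4 CPM in healthy, 0.38 to 1.34 in acute, 3.31 to 18.9 in fibrosis and 8.33 to 12.9 in cirrhosis libraries. By group they were lowest in acute LSECs, where Spp1 was highest. Libraries within fibrosis did not follow this order. There replicate 15, with the most Spp1 (99.3 CPM), had a sum of 10.4 CPM, above the 3.31 CPM of replicate 13. Of the bile duct markers other than Spp1, 3 of 6 tested were called higher and 0 lower in cirrhosis (Epcam, Sox9 and Cftr, with log2 fold changes of 2.95, 1.68 and 3.44), and 1 of 4 higher and 2 lower in fibrosis. Stellate cell markers summed to 284 to 786 CPM in healthy, 1315 to 2132 in acute, 1301 to 1746 in fibrosis and 628 to 1932 in cirrhosis libraries. In acute LSECs Reln rose within this sum by a log2 fold change of 3.37 while 6 of 9 tested markers were called lower, and in cirrhosis 9 of 11 were called higher and 0 lower (median 2.08). The part of these cells in the levels of the 7 genes was not tested, and in bulk samples fewer cells of a type and less RNA per cell cannot be told apart.

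**Figure D4:**
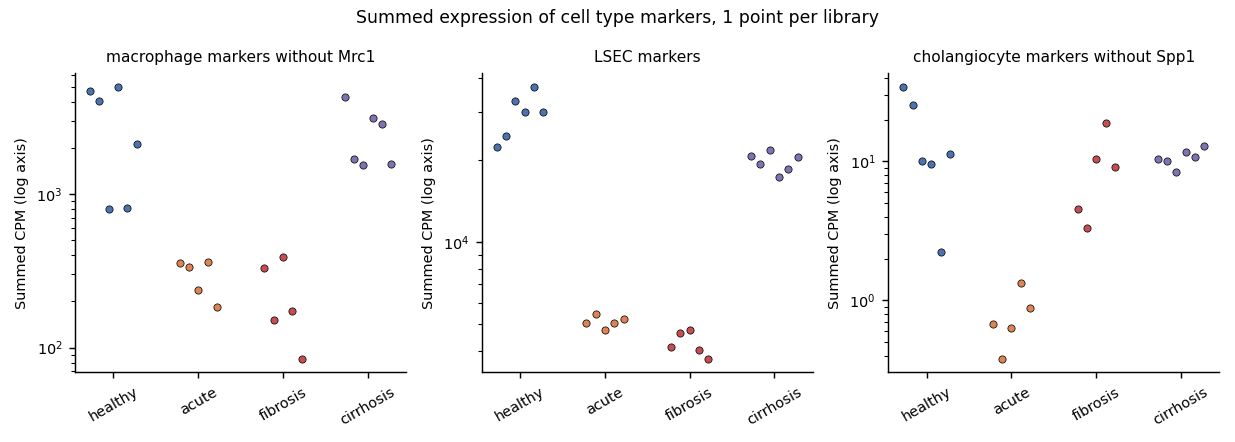
Summed CPM (log axis) of 17 macrophage markers, 14 LSEC markers and 8 bile duct markers in the 22 libraries of the CCl4 series, with 1 point per library in order of replicate number. Macrophage and LSEC sums are both lower in acute and fibrosis LSECs than in healthy and cirrhosis LSECs.

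The LSEC label was checked in the same way. Of 14 LSEC markers found in the files, 11 were called lower and 0 higher in acute LSECs and 12 lower in fibrosis, with sums of 4762 to 5448 and 3734 to 4746 CPM against 22432 to 37161 in healthy libraries. Cdh5, which marks endothelium in general, was not called at any stage, with means of 1293, 1597, 1039.7 and 1506 CPM in healthy, acute, fibrosis and cirrhosis LSECs. Krt19, a bile duct keratin, stayed below 0.10 CPM on average in acute and fibrosis LSECs. Expression of Cdh5 was present at each stage, while most of the 14 markers were lower at 2 and 6 weeks. That list also held the broader endothelial genes Kdr, Tek and Eng, so the lower levels were not confined to sinusoidal genes. In cirrhosis 5 of the 14 LSEC markers were called lower and 2 higher, and the sums of 17391 to 21702 CPM all lay below the healthy ones.

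Within a group, the libraries with more macrophage markers tended to hold more of Gpnmb and Lgals3. In healthy LSECs replicates 3 and 5 had the lowest macrophage sums without Mrc1 (802 and 810 CPM, against 2135 to 4995 in the others), and they also had the lowest Gpnmb (10.8 and 10.7 CPM) and Lgals3 (34.8 and 26.6 CPM). In acute LSECs replicate 8 had the lowest sum (185 CPM) and was lowest for 5 of the 7 genes, but highest for Cd44 (115 CPM). In fibrosis replicate 15 had the highest sum (389 CPM) and was highest for 5 genes, and replicate 17 had the lowest (84.8 CPM) and was lowest for 6. In cirrhosis replicate 4 was highest for 5 genes, with the second largest sum (3124 CPM, against 4270 in replicate 1). Other cirrhosis libraries departed from this. Replicate 6 had a sum of only 1578 CPM but 143 CPM of Gpnmb, and replicate 1 had only 1.76 CPM of Spp1 and 0.41 of Trem2. The part of macrophages in these levels was not tested. Mmd, counted among the 5 genes highest in fibrosis replicate 15, varied little between the libraries of the acute and fibrosis groups.

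The wider scar-associated macrophage signature was split, as were genes at large. It has 32 genes, which contain 6 of the 7 described here. In acute LSECs 9 were called higher and 14 lower, in fibrosis 9 and 15, and in cirrhosis 10 and 6 of 31 tested. The shares over all genes tested were 35.8% higher and 38.3% lower in acute LSECs and 35.8% and 35.4% in fibrosis. In cirrhosis these shares were 28.8% and 25.7%. The median log2 fold changes of the signature were -0.50, -0.69 and 0.06. Acp5, an osteoclast and macrophage phosphatase, fell in acute and fibrosis LSECs (log2 fold changes -3.72 and -3.94). Lpl, lipoprotein lipase, rose at all 3 stages, from 2.33 CPM in healthy LSECs to means of 39.1, 7.19 and 40.0, although single acute libraries ran from 1.52 to 113 CPM, with log2 fold changes of 3.31, 1.66 and 4.16. Between cirrhosis and fibrosis 17 signature genes were called higher and 3 lower, and all 18 macrophage markers were called higher. There 34.5% of all genes tested were called higher and 29.7% lower.

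In the TAA experiment the 7 genes differed between the labelled groups in another way. Of 6 genes tested, 1 was called higher and 2 lower in the group labelled TAA control, where 13.5% of all genes were called higher and 15.9% lower. Of all genes tested, 35.4% had no overlap between the labelled groups. Spp1 had 1.13, 2.45, 3.56, 1.41 and 1.16 CPM in replicates 1 to 5 of the group labelled control. In the group labelled TAA control it had 0.31, 0.87, 0.03, 0.91 and 1.12 CPM in replicates 10, 12, 13, 14 and 15, from 1 to 28 counts. The groups did not overlap, but the highest of the latter (1.12) almost reached the lowest of the former (1.13), and the log2 fold change was -2.07 ± 0.73 (SE, limma-voom adjusted p = 0.0353). It was -1.25 without replicate 13.

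Fabp5 was lower in the group labelled TAA control, with 116, 142, 90.8, 109.6 and 110.5 CPM against 310, 345, 266, 248 and 271 in the group labelled control. The groups were well apart (log2 fold change -1.35 ± 0.12, SE, limma-voom adjusted p = 2.59e-05), and Fabp4, its relative, was lower as well (-3.48). Cd44 went the other way, with 14.1, 20.3, 16.95, 59.5 and 60.1 CPM against 10.4, 10.8, 17.3, 11.3 and 10.3. Replicates 14 and 15 were far above the rest, and the log2 fold change of 1.23 ± 0.45 (SE, adjusted p = 0.0403) fell to 0.54 without them and was then below the fold threshold. These replicates also had the highest macrophage sums without Mrc1 of the group (843 and 890 CPM, against 223 to 398 in the other 3).

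Mmd stayed at 6.38 to 15.96 and 12.1 to 12.8 CPM in the groups labelled control and TAA control, with no library near the plateau seen at 2 and 6 weeks of CCl4. Gpnmb (2.82 to 14.3 and 1.32 to 12.8 CPM) and Lgals3 (8.90 to 17.8 and 3.72 to 18.8 CPM) overlapped between the groups and were not called, with log2 fold changes of 0.12 ± 0.61 and -0.43 ± 0.40 (SE). Without replicates 14 and 15, Lgals3 was called lower (-1.002, limma-voom adjusted p = 0.0375). Trem2 did not pass the low-count filter, with 4 to 15 counts per library in the group labelled control and 0 to 4 in the other. Replicate 13 had 0 counts, which allows a level of up to 0.10 CPM at 3 counts. Macrophage markers without Mrc1 summed to 58.9 to 329 and 223 to 890 CPM, bile duct markers other than Spp1 to 4.79 to 11.6 and 1.53 to 2.96, and stellate cell markers to 2108 to 5236 and 344 to 538. Stellate and bile duct sums were higher where Spp1 and Fabp5 were higher, and their part in these differences was not tested.

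**Figure D5:**
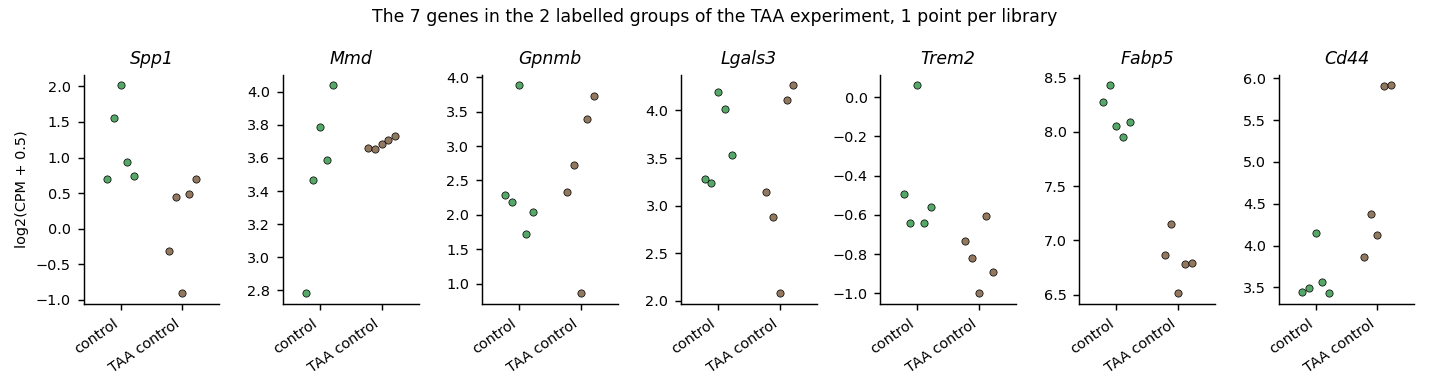
Levels of the 7 genes as log2(CPM + 0.5) in the groups labelled control (replicates 1 to 5) and TAA control (replicates 10, 12, 13, 14 and 15), with 1 point per library and a y axis whose range differs between panels. Fabp5 separates the groups, Cd44 is high in replicates 14 and 15, and Gpnmb, Trem2 and Cd44 are highest among the control libraries in replicate 3.

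Among 8527 well expressed genes, those with the pattern most like each of the 7 over the 22 CCl4 libraries were found by the root mean square difference of centred log2 CPM. For Spp1 they were Mmp12 (1.36), Mphosph10 (1.67) and Gpatch4 (1.68). For Mmd they were Akr1b10 (0.52), an aldo-keto reductase that averaged 34.7, 6015, 4728 and 46.7 CPM in healthy, acute, fibrosis and cirrhosis LSECs, and Slc7a11 (0.82), the cystine transporter, with 0.58, 86.6, 191 and 1.53 CPM, and then Ptprn (0.84). For Gpnmb they were Pla2g7 (0.64), a macrophage phospholipase, Tm4sf19 (0.73) and Slamf8 (0.74). For Lgals3 they included Il1rn (0.52), the interleukin-1 receptor antagonist, and Pcsk1 (0.53). Cd44 was nearest to Rhbdf2 (0.45), Igf2r (0.47) and Prkcd (0.48), and Fabp5, which varied least, to Tmem242 (0.24), Nsmce1 (0.26) and Sep15 (0.28). Trem2, compressed by the added 0.5 at its low level, was nearest to Anxa2 (0.47), Sgms2 (0.51) and Igf2r (0.54).

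Among the 7 themselves, the nearest pair by this measure was Trem2 and Cd44 (0.65) and the most distant Mmd and Fabp5 (3.79). Spp1 was nearest to Gpnmb (1.76), and Gpnmb in turn to Lgals3 (0.89). Mmd was at least 2.69 from each of the others.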

How the data were processed

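RNA from rat LSECs was sequenced from poly(A)-selected, stranded libraries. Expected counts per gene were deposited by the authors, 1 table per library, and the submitters' processing notes name FastQC, Trim Galore, STAR, RSEM, limma and the assembly Rnor_6.0, with versions not given in the sources used here. RSEM divides reads that map to several genes, so genes with close copies are less certain. Here the counts were rounded, filtered by filterByExpr, scaled by TMM (edgeR 4.0.16) and fitted for each pair of groups by limma-voom (limma 3.58.1, R 4.3.3). A gene was called at an unadjusted p under 0.05 and a fold change above 1.5. For Spp1 and Mmd no test is given where healthy or acute libraries enter. CPM were scaled over the 22 CCl4 libraries and separately over the 10 of the TAA experiment, and levels are not compared between them. Where log2 CPM was used, 0.5 was added. Lengths were not used, so levels are not compared between genes. The steps were tested on simulated data. edgeR and DESeq2 1.42.0 were alternatives.

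The 7 genes and the gene lists were chosen with earlier results of these data known. Named were the 7 genes in every comparison, tested genes of the receptor, protease, TREM2, galectin, FABP, PAQR, MiT-TFE and hyaluronan lists, up to 4 called genes with the largest change from the signature and cell type lists at a mean log2 CPM of at least 3, defining markers, and the 3 genes most like each member, of which 1 is not reported here. Mmd2, Reln, Timd4, Sox9 and Cftr were singled out after their values were seen.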

Additional observations from a re-analysis of the deposited data

Results flagged for a closer look

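In 42 groups of 5 or 6 libraries, 1 for each gene and group, Dixon's test at the 95% level marked 4 values, where about 1 in 20 groups, or 2.1 in all, is marked by chance. In replicate 3 of the group labelled control, Gpnmb was at 3.89 on the log2(CPM + 0.5) scale with its nearest neighbour at 2.29, Trem2 at 0.062 with its neighbour at -0.49, and Cd44 at 4.15 with its neighbour at 3.56. That library also had the highest macrophage sum without Mrc1 of its group (329 CPM), and the part of these markers was not tested. In acute replicate 8, Gpnmb was at 6.67 with its nearest neighbour at 8.20, and that library had the lowest macrophage sum of its group (185 CPM).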

How the results depend on the processing

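Of the values recomputed for the 7 genes under the alternatives, 931 counted as unchanged, 33 passed the threshold newly and 23 no longer passed it. A further 45 changed sign and 2 moved in size, with the cause not tested. Unchanged meant the same direction and side of the threshold. For Spp1 and Mmd, where healthy or acute libraries entered, it meant a shift smaller than the SD within groups, whatever the threshold. The genes called in cirrhosis against healthy LSECs numbered 1 at an adjusted p or with weights per library, 5 with library size only, and 1 to 5 with single libraries left out, against 3 in the main analysis; these counts include Spp1 and Mmd wherever they met the call rule, as a description only. Those in fibrosis against healthy numbered 2 after a filter of 1 CPM, which leaves fewer genes to test, and 3 to 5 with libraries left out. Those in fibrosis against acute, 2 in the main analysis, numbered 1 with edgeR, with DESeq2, at an adjusted p and with the CPM filter, 4 with weights and 2 to 3 with libraries left out. In cirrhosis against fibrosis 1 to 2 were called with libraries left out, the 2 being without cirrhosis replicate 4 or fibrosis replicate 17, in acute against healthy 3 to 5, in cirrhosis against acute 3 to 4, and in the TAA experiment 3, a count that stayed without replicates 14 and 15 as Lgals3 replaced Cd44.

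Sign changes were in uncalled values. For Fabp5 in acute against healthy they were -7.69e-04 with edgeR, -0.016 in a single fit of all groups, -0.0087 with the CPM filter and -0.052 with upper-quartile factors (-0.070 to 0.22 with libraries left out). Fabp5 was 0.22 with library size only in fibrosis. In cirrhosis it was 0.021 with no filter, 0.090 with the CPM filter, 0.0056 with DESeq2 size factors, 0.14 with upper-quartile factors and 0.34 with library size only (-0.12 to 0.14). Against acute, Fabp5 in cirrhosis was -0.016 with edgeR, -0.0024 in the single fit, -0.15 with weights and -0.10 with library size only (-0.17 to 0.10). Lgals3 was -0.13 with weights in fibrosis, and in cirrhosis against acute 0.018 with DESeq2, 0.0035 with weights and 0.078 with upper-quartile factors (-0.33 to 0.092). Cd44 in acute was -0.14 with weights, and in cirrhosis against acute -0.057 to 0.38. With single libraries left out, Trem2 ran from -0.013 to 0.59 in acute against healthy and from -1.002 to 0.0092 in cirrhosis against fibrosis, and Spp1 from -1.77 to 0.41 there. In the TAA experiment Mmd ran from -0.044 to 0.29 and Gpnmb from -0.16 to 0.66, and Gpnmb was -0.12 with replicates 14 and 15 averaged and -0.52 without both, alternatives chosen after seeing the data.

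With a replicate block on shared numbers, 4 genes were called in acute, 4 in cirrhosis (Lgals3 joining at 0.95, limma-voom adjusted p = 0.0448) and 3 in cirrhosis against acute, while Cd44 in acute was -0.21 and Fabp5 in cirrhosis against acute -0.25. Same-numbered libraries correlated between -0.37 and 0.33 over 6 pairs of cirrhosis and healthy. The values ran from 0.02 to 0.24 over 4 pairs of acute and healthy, and from -0.15 to 0.14 over 4 of cirrhosis and acute. In 0, 2 and 0 of these cases the same number gave the highest correlation. So few pairs cannot settle whether the numbers pair libraries, and the main fits took them as unpaired. Trem2 and healthy Spp1 rest on few counts, which limits their precision.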
